A study of Ambystoma mexicanum with 3 samples.

Results

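Surface epithelial-like nuclei of the regenerating axolotl tail are described here. They were chosen by 4 gene symbols, *Muc5b*, *Otof*, *Msln* and *Arhgef4*. A nucleus was a member where it held at least 4 unique molecular identifiers (UMIs, 1 per captured RNA molecule) of these symbols, from at least 2 of them, and passed a depth minimum of 1300 UMIs (2000 UMIs in the control library at 6 HPA). The rule found 2009 members among 133193 nuclei. Of these, 523 were among 44735 nuclei of Rom 6 HPA, 850 among 56936 nuclei of Cont 6 HPA and 636 among 31522 nuclei of 0 HPA.

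The tissue came from stage 42 axolotl (*Ambystoma mexicanum*) embryos whose distal tail was amputated by 2 mm. Rom 6 HPA is a single nuclei RNA-Seq library of tail tips (1 mm of tissue, pooled from 100 embryos) that were kept in 10 μM romidepsin and collected 6 hours post amputation (HPA). Cont 6 HPA is the matching library of 100 embryos kept in rearing water, and 0 HPA is a control library of amputated tail tips from the time of amputation. The sample labels name the later time as day 6, whereas the design text names it as 6 HPA, which is used here. Each condition is 1 library of pooled embryos. No spread between animals is therefore known, no test between conditions was made, and all intervals below are 95% intervals that cover counting error only.

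The epidermis of an amphibian larva is a thin epithelium that faces the water. Its outer cells secrete mucus, seal the surface with apical tight junctions and move ions, and they rest on keratin-rich basal cells that attach to the basement membrane. Gel-forming mucins are long proteins that are folded in the endoplasmic reticulum, loaded with O-linked sugars in the Golgi and released from granules. Romidepsin inhibits class I histone deacetylases, enzymes that remove acetyl groups from histones.

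Levels are UMIs of a symbol scaled to the total UMIs of the nuclei named (CPM). Members were compared with the other nuclei that passed the depth minimum of their library ("other nuclei") and with the nuclei under it ("shallow nuclei"). The members were deep nuclei. Their median total was 3558 UMIs in Rom 6 HPA, 4934 in Cont 6 HPA and 3331 in 0 HPA, whereas other nuclei had medians of 2117, 3250 and 2115 UMIs and shallow nuclei 1058, 1601 and 996 UMIs in the same libraries. Mitochondrial transcripts took 21.5%, 18.4% and 9.85% of the members' UMIs in Rom 6 HPA, Cont 6 HPA and 0 HPA. They took 16.7%, 15.2% and 10.9% in other nuclei and 19.8%, 21.0% and 17.9% in shallow nuclei. Pairs of libraries shared 469 to 736 barcodes, of which 0 were members of both libraries. The nuclei counts that the study's text attaches to both libraries at 6 HPA are those of the files with the labels exchanged, and the labels of the files are used here. If the labels of the files were wrong, each direction between Rom 6 HPA and Cont 6 HPA below would turn round.

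Of all nuclei, 1.17% (1.07 to 1.27) in Rom 6 HPA, 1.49% (1.39 to 1.60) in Cont 6 HPA and 2.02% (1.87 to 2.18) at 0 HPA were members. Among nuclei that passed the depth minimum they made up 6.96% (6.40 to 7.56) of Rom 6 HPA, 13.4% (12.5 to 14.2) of Cont 6 HPA and 9.10% (8.44 to 9.80) at 0 HPA. When each of these nuclei was thinned to 1300 UMIs, the rule was met by 0.706% (0.529 to 0.922) in Rom 6 HPA, 1.42% (1.14 to 1.74) in Cont 6 HPA and 1.66% (1.37 to 1.99) in 0 HPA. By the labels of the files, Rom 6 HPA had the lowest share by each of the 3 measures. The order of Cont 6 HPA and 0 HPA depended on the denominator and on depth. Fewer such nuclei and less of the 4 RNAs per nucleus cannot be told apart here, and the part of depth in these shares was not tested beyond the thinning.

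The 4 symbols set the membership, so their levels in members are a description. *Otof* encodes otoferlin, a calcium sensor for vesicle fusion that is best known from mammalian inner hair cells. It had 594 CPM in members of Rom 6 HPA, 566 in Cont 6 HPA and 605 in 0 HPA, against 58.1, 37.8 and 76.3 CPM in other nuclei. *Msln*, the symbol of the cell-surface glycoprotein mesothelin, had 592, 521 and 666 CPM in members, against 178, 186 and 190 CPM in other nuclei and 299, 335 and 332 CPM in shallow nuclei. The summed symbol *Msln* was thus spread over all nuclei, and 30.3% of muscle-like nuclei of Rom 6 HPA (*Dmd*, *Mypn*, *Ttn*, *Ryr1*) held a UMI of it, against 95% of members. It sums 4 unlike features. The most abundant had 387, 359 and 462 CPM in members and 288, 324 and 318 CPM in shallow nuclei. Another had 127, 101 and 125 CPM in members and 6.10, 5.65 and 8.05 CPM in shallow nuclei. A further feature had 75.9, 56.3 and 71.4 CPM against 3.94, 4.15 and 5.48 CPM. *Muc5b*, a gel-forming mucin, was the most restricted of the 4 symbols. It had 106, 177 and 190 CPM in members and 6.96, 5.52 and 15.1 CPM in other nuclei, and a UMI of it was held by 36.7% of the members and 0.345% of the muscle-like nuclei of Rom 6 HPA. *Arhgef4*, a guanine nucleotide exchange factor for small GTPases, had 113, 85.8 and 77.9 CPM in members and 14.8, 9.47 and 12.4 CPM in other nuclei.

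**Figure D1:**
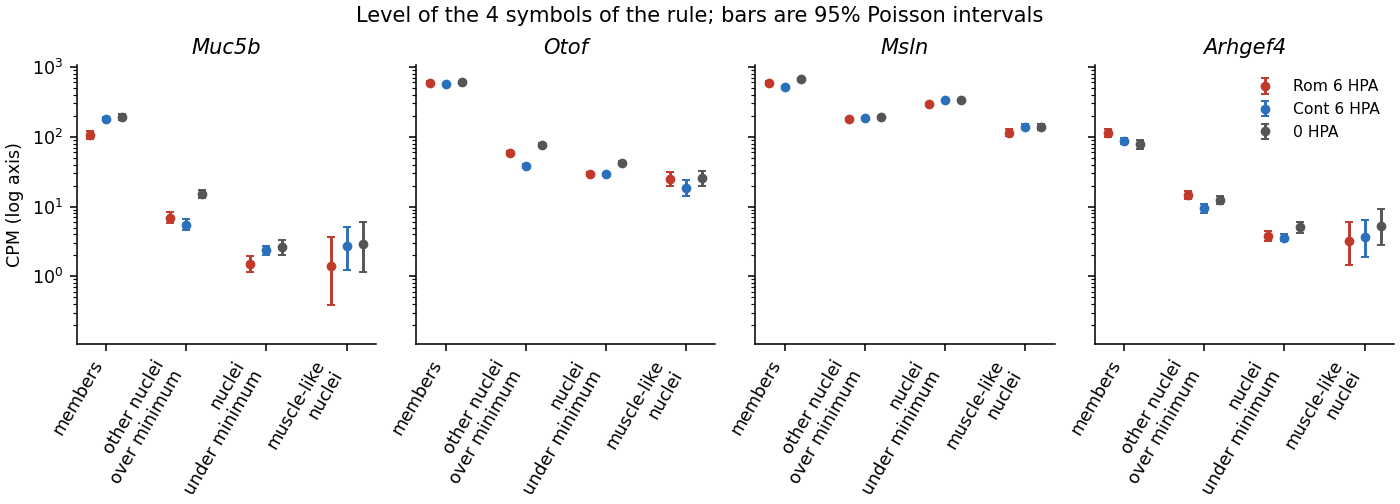
Level of *Muc5b*, *Otof*, *Msln* and *Arhgef4* in CPM (log axis) in members, other nuclei over the depth minimum, nuclei under it and muscle-like nuclei; points are libraries (Rom 6 HPA, Cont 6 HPA, 0 HPA from left to right) and bars are exact Poisson 95% intervals. *Msln* stays above 100 CPM in every kind of nucleus, whereas *Muc5b* is at 1.51 to 2.62 CPM in nuclei under the minimum and at 106 to 190 CPM in members.

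*Otof* and *Msln* together made up the rule's most frequent pair. In Rom 6 HPA 217 of 523 members (41.5%) held *Otof* and *Msln* alone, and 51 members (9.75%) held all 4 symbols. In Cont 6 HPA 244 of 850 members (28.7%) held that pair alone and 139 (16.4%) all 4 symbols, and in 0 HPA 234 of 636 (36.8%) and 48 (7.55%). Members of Cont 6 HPA were also deeper, and the part of depth in these counts was not tested. By the number of marker UMIs, the edge of the rule was gradual for *Evpl* and less even for *Muc15*. *Evpl*, which encodes the desmosomal plakin envoplakin, had 701 CPM in the 171 members of Rom 6 HPA with exactly 4 marker UMIs and 547 CPM in the 214 nuclei left out with 3 UMIs of 2 or more symbols. The same values were 641 and 550 CPM in Cont 6 HPA and 1038 and 883 CPM in 0 HPA. *Muc15* had 24.8 CPM inside and 14.2 CPM outside this edge in Rom 6 HPA. It had 23.1 and 14.2 CPM in Cont 6 HPA and 26.6 and 26.7 CPM in 0 HPA. Nuclei left out with 4 or more marker UMIs of 1 symbol had 757 CPM of *Evpl* in Rom 6 HPA, above the 701 CPM inside. Such nuclei had 559 CPM in Cont 6 HPA and 854 CPM in 0 HPA.

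Beyond the 4 symbols, single mucin, O-glycosylation, exocytosis and tight junction genes were over 2-fold higher in members, whereas most genes of each of these lists were not. Every gene below is given as a description, since the members were chosen in the same nuclei. Of 6272 symbols with at least 30 UMIs in the members of each library, 326 (5.2%) were at least 2-fold higher in members than in other nuclei in each of the 3 libraries and 129 (2.06%) were at least 2-fold lower. The median log2 ratio of members to other nuclei over all these symbols was 0.02 in Rom 6 HPA, 0.04 in Cont 6 HPA and 0.10 in 0 HPA. Against shallow nuclei as well, 247 symbols (3.94%) were at least 2-fold higher in each library, and the median log2 ratio of members to shallow nuclei over all tested symbols was 0.39 in Rom 6 HPA, 0.41 in Cont 6 HPA and 0.46 in 0 HPA.

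Of 8 mucin and mucus genes tested besides *Muc5b*, 3 were at least 2-fold higher in members than in other nuclei in each library, and the median log2 ratio of these 8 was 0.95 (0.54 against shallow nuclei). They were *Muc2*, *Muc16* and *Muc15*. *Muc2*, another gel-forming mucin, had 15.6, 10.2 and 13.0 CPM in members of Rom 6 HPA, Cont 6 HPA and 0 HPA and 2.26, 2.08 and 3.15 CPM in other nuclei. The membrane mucin *Muc16* had 107, 90.8 and 78.3 CPM in members and 32.5, 24.3 and 36.1 CPM in other nuclei. The membrane mucin *Muc15* had 23.3, 35.9 and 42.0 CPM in members and 5.89, 7.39 and 9.31 CPM in other nuclei. Each of these mucins was higher in members than in both other kinds of nuclei. *Fcgbp*, whose product is bound to mucus gels, was the most abundant gene of the list, with 6553, 6138 and 7021 CPM in members. It also had 3271, 3000 and 3549 CPM in other nuclei and 5171, 5030 and 5762 CPM in shallow nuclei. It thus lay near 2-fold against other nuclei, without passing it in each library (log2 ratios of 1.00, 1.03 and 0.98). Against shallow nuclei its ratios were 0.34, 0.29 and 0.29. *Agr2*, a disulphide isomerase needed for mucin folding in mammals, was higher in shallow nuclei (1032, 1031 and 1227 CPM) than in members (786, 646 and 848 CPM). The goblet cell genes *Spdef* and *Tff3* had 0 UMIs in members, which allows levels of up to 1.37 CPM in Rom 6 HPA, 0.626 CPM in Cont 6 HPA and 1.22 CPM in 0 HPA (3 UMIs of the total).

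Of 10 tested genes for enzymes that start and extend O-linked sugars, 3 were at least 2-fold higher in members than in other nuclei and in shallow nuclei in each library. The list median was 0.76 against other nuclei and 0.31 against shallow nuclei, the second below that of all tested symbols. *Galnt6*, a transferase that adds the first sugar, had 497 CPM in members of Rom 6 HPA, 506 in Cont 6 HPA and 423 in 0 HPA, against 161, 138 and 166 CPM in other nuclei. *Galnt5* had 83.3, 80.5 and 80.7 CPM in members and 33.8, 29.9 and 34.4 CPM in other nuclei. *Gcnt4*, which branches the sugar chain, had 91.0, 90.4 and 99.9 CPM in members and 34.5, 27.2 and 38.2 CPM in other nuclei. The other genes of the list did not pass 2-fold. *Galnt2* was lower in members than in other nuclei in each library (log2 ratios of −0.42, −0.32 and −0.40), and *Galnt3*, with too few UMIs to enter the test, had 8.69, 7.51 and 8.16 CPM in members and 14.0, 14.4 and 17.1 CPM in other nuclei.

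In the list of regulated exocytosis, *Sytl2*, which docks granules through Rab27, was the 1 gene of 3 tested besides *Otof* that was over 2-fold higher in members. Of 9 tight junction and polarity genes, 2 were higher by this measure (list median 0.36 against other nuclei and −0.27 against shallow nuclei). Cingulin (*Cgn*), a scaffold of tight junctions, had 85.5, 70.5 and 88.1 CPM in members of Rom 6 HPA, Cont 6 HPA and 0 HPA, 27.4, 22.1 and 28.4 CPM in other nuclei and only 7.93, 7.53 and 9.26 CPM in shallow nuclei. *Eps8l1*, a regulator of actin, was the other one, with log2 ratios of 2.05, 2.19 and 1.90. *Cldn4* went the other way, with 163, 142 and 126 CPM in members and 255, 219 and 204 CPM in other nuclei.

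The 6 tested desmosome and cornified envelope genes had a list median of 0.80 against other nuclei and 0.30 against shallow nuclei, and 0 of 6 passed 2-fold against both. *Evpl* was the only one of 6 that passed 2-fold against other nuclei in each library, with 795, 782 and 1115 CPM in members and 377, 374 and 492 CPM in other nuclei. *Dsp* and *Pkp1*, further desmosomal proteins, lay near 2-fold against other nuclei, and *Perp* was lower in members than in shallow nuclei in each library (−0.24, −0.18 and −0.19). Of 3 tested surface epithelial transcription factors, 1 was over 2-fold higher than in both other and shallow nuclei (list medians 0.82 and 0.41). This was *Grhl3*, a regulator of epidermal barrier formation in mammals, with 26.5, 36.1 and 62.8 CPM in members and 6.90, 7.90 and 21.4 CPM in other nuclei. *Klf5* stayed under 2-fold against other nuclei (0.80, 0.82 and 0.84). *Elf3* was lower than in other nuclei in Rom 6 HPA and Cont 6 HPA (−0.12 and −0.04) and higher in 0 HPA (0.60). Ion and water transport genes were divided. *Scnn1g*, a subunit of the epithelial sodium channel, had 30.2, 31.7 and 51.0 CPM in members and 6.78, 5.62 and 14.0 CPM in other nuclei, and it was over 2-fold higher than in shallow nuclei too. The proton pump *Atp12a* and the calcium channel *Trpv6* were over 2-fold higher than in other nuclei but not than in shallow nuclei (log2 ratios of 0.68 to 0.91 for *Atp12a* and 0.60 to 0.75 for *Trpv6*). *Trpm7* was over 2-fold lower in members (41.6, 36.1 and 40.4 CPM) than in other nuclei (94.0, 93.4 and 98.1 CPM), and over 2-fold higher than in shallow nuclei (1.58, 1.97 and 1.58).

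**Figure D2:**
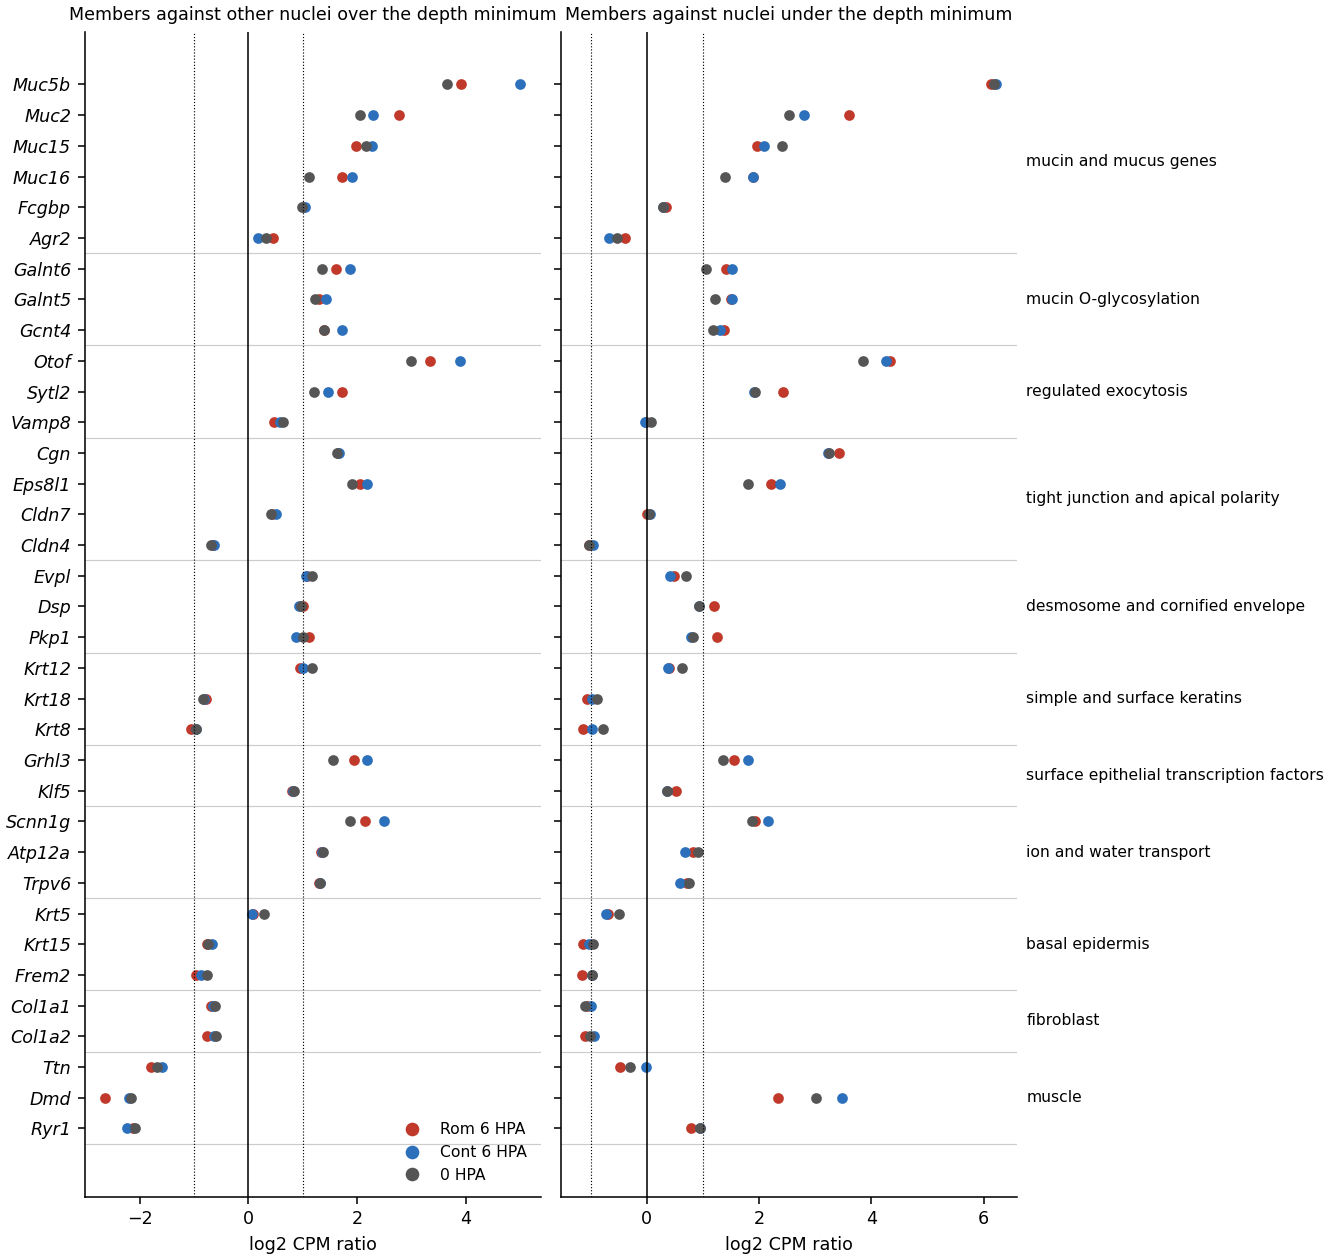
Log2 CPM ratio of members to other nuclei over the depth minimum (left) and to nuclei under it (right) for genes of the fixed lists, 1 point per library; dotted lines mark 2-fold. *Cgn*, *Galnt6*, *Grhl3* and the 4 mucins lie above 2-fold on both sides, *Fcgbp* and *Evpl* only near or above it on the left, and *Krt8*, *Krt18*, *Col1a1* and *Col1a2* lie below 0 on both.

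General epithelial markers were divided, and the label holds only in part: most tested genes of the epithelial lists were not 2-fold higher in members. *Krt12*, a keratin of the corneal surface in mammals, had 950, 981 and 1702 CPM in members and 490, 486 and 752 CPM in other nuclei, just under 2-fold in Rom 6 HPA (log2 ratio 0.96), and its ratios to shallow nuclei (0.40, 0.37 and 0.63) were near the median of all tested symbols. The simple epithelial keratins were lower in members, with 162, 209 and 192 CPM of *Krt8* against 337, 406 and 372 CPM in other nuclei. *Cdh1* (E-cadherin) had 28.4, 36.7 and 33.4 CPM in members and 55.1, 59.1 and 48.7 CPM in other nuclei, and *Epcam* had 166, 163 and 148 CPM in members and 174, 173 and 130 CPM in other nuclei. *Esrp1* and *Esrp2* had 0 UMIs in nuclei of every kind. The basal keratin *Krt5* was abundant in every kind of nucleus, with 16088, 16550 and 21405 CPM in members, 15173, 15845 and 17479 CPM in other nuclei and 25898, 27470 and 30098 CPM in shallow nuclei. Of 4 tested basal epidermis genes, 3 were lower in members than in other nuclei in each library, but 0 by 2-fold. They were *Krt15* (log2 ratios of −0.76, −0.67 and −0.74), *Frem2* (−0.97, −0.87 and −0.77) and *Itga6* (−0.52, −0.24 and −0.35). The list median was −0.55 against other nuclei and −0.84 against shallow nuclei.

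Markers of muscle and fibroblasts were lower in members than in other nuclei, and the summed ciliated list was not, through a small sub-group. All 5 tested muscle genes were over 2-fold lower, and the summed level of the list of 6 was 701, 802 and 731 CPM in members, against 2671, 2632 and 2532 CPM in other nuclei and 840, 688 and 766 CPM in shallow nuclei. Against shallow nuclei *Dmd* (2.34, 3.47 and 3.02), *Mypn* and *Ryr1* were higher in members, with a list median of 0.90. Their levels lay mostly in sub-group 6 (below). *Dmd* had 1768 CPM in it and 10.8 CPM in the remaining members, *Mypn* 273 and 2.46 CPM, and *Ryr1* 292 and 5.48 CPM. In sub-groups 1 to 3 *Dmd* had 5.78, 5.00 and 7.62 CPM in Rom 6 HPA, Cont 6 HPA and 0 HPA. The ciliated list of 10 summed to 110, 146 and 119 CPM in members, against 117, 120 and 127 CPM in other nuclei and 47.4, 46.9 and 44.1 CPM in shallow nuclei. Over the 3 libraries, sub-groups 1, 2 and 3 of the members (below) had 42.0, 37.1 and 35.0 CPM of this list. Sub-group 7 had 2518 CPM, so much of the ciliated level in members lay in that sub-group. The summed level of 6 fibroblast genes was 2916, 2633 and 2498 CPM in members, against 4829, 4188 and 3853 CPM in other nuclei. *Col1a1* and *Col1a2* were in nearly every deep nucleus: 82.6% to 96.7% of all nuclei over the depth minimum met the fibroblast rule, so meeting it did not separate cell types. Endothelial, myeloid and neuron lists summed to at most 21.7 CPM in members. Of the 7 hair cell genes found, 0 reached 30 UMIs in the members of each library, and their sum was 3.66, 12.3 and 5.71 CPM. Rules of ciliated, muscle, endothelial or basal cells were met by 34 members in Rom 6 HPA, 56 in Cont 6 HPA and 39 at 0 HPA. No doublets were removed, and the part of doublets in these nuclei was not tested.

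The 20 named symbols with the highest ratio of members to other nuclei, by the lowest of the 3 libraries, were all over 2-fold higher than in shallow nuclei too. Of all 326 symbols at least 2-fold higher than in other nuclei, 247 were so against shallow nuclei as well. The 20 include *Muc5b*, *Otof* and *Arhgef4*, which set the membership, and all were picked in the same nuclei, so their ratios are a description. After *Muc5b*, *Otof* and *Arhgef4* came *Ccdc129* (14.2, 14.6 and 20.4 CPM in members of Rom 6 HPA, Cont 6 HPA and 0 HPA, against 2.38, 1.82 and 3.02 CPM in other nuclei) and the mesothelin relative *Mslnl* (28.8, 20.5 and 28.5 CPM, against 3.09, 2.28 and 5.64 CPM). *Abca12*, a lipid transporter of the mammalian skin barrier, had 21.0, 17.9 and 16.7 CPM in members and 4.34, 2.68 and 3.28 CPM in other nuclei. The receptor tyrosine phosphatases *Ptprj* and *Ptprb* were both on the list, and *Ptprb* had 101, 79.7 and 116 CPM in members and 20.6, 15.5 and 29.3 CPM in other nuclei. *Fut4*, a fucosyltransferase, had 37.1, 52.8 and 104 CPM in members, so its level in Cont 6 HPA was about that in 0 HPA less 1 doubling (log2 ratio −0.97). *Parp14*, an ADP-ribosyltransferase, had 228, 228 and 315 CPM in members and 65.4, 58.0 and 89.4 CPM in other nuclei. *Apol1*, *Znf185*, *Tll2*, *Adam9*, *Hsd17b2* and the mucosal chemokine *Ccl28* completed the list with the mucins, *Eps8l1* and *Scnn1g* already described.

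Within members, the level in Rom 6 HPA was set over that in Cont 6 HPA. With 1 library per condition, romidepsin and other differences between the libraries cannot be told apart. Transcripts for a secreted factor, a glucose transporter and several regulators of transcription and signalling were higher in Rom 6 HPA, and an epidermal transglutaminase and a wound keratin were lower. Of 6470 symbols with at least 100 UMIs in the members of both libraries together, 75 (1.16%) were at least 2-fold higher in Rom 6 HPA and 150 (2.32%) at least 2-fold lower. The median log2 ratio was −0.07 in members, −0.03 in other nuclei and 0.06 in shallow nuclei.

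*Metrn*, which encodes the secreted factor meteorin, had 36.1 CPM in Rom 6 HPA members and 7.30 CPM in Cont 6 HPA members, against 10.2 CPM in 0 HPA (log2 ratio of Rom to Cont 2.31, 1.72 to 2.92). The ratio in other nuclei of the same libraries was 1.98. *Hoxa3*, a homeobox factor, had 46.2 CPM in Rom 6 HPA and 11.5 CPM in Cont 6 HPA (2.01, 1.52 to 2.51; other nuclei 1.54). In sub-groups 1 to 3 (below) it had 39.8, 10.6 and 23.5 CPM in Rom 6 HPA, Cont 6 HPA and 0 HPA. *Spry1*, an inhibitor of receptor tyrosine kinase signalling, had 39.3 CPM in Rom 6 HPA and 11.3 CPM in Cont 6 HPA (1.80; other nuclei 1.41). *Cited4b*, of a family that binds the acetyltransferases CBP and p300, had 81.4 CPM in Rom 6 HPA and 27.3 CPM in Cont 6 HPA, with a log2 ratio of 1.57 in members and in other nuclei alike. *G0s2*, an inhibitor of triglyceride breakdown, had 95.6 CPM in Rom 6 HPA and 36.3 CPM in Cont 6 HPA (1.40; other nuclei 1.63). These 5 genes were higher in Rom 6 HPA in both kinds of nuclei, with intervals of the difference between members and other nuclei that included 0.

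For 4 others the ratio was larger in members than in other nuclei by more than the counting error. Genes were picked for naming by a high ratio in members, which favours a larger ratio there than in other nuclei. The intervals of these differences are thus a description. *Mknk2*, a kinase that phosphorylates the translation factor eIF4E, had 177 CPM in Rom 6 HPA members and 49.7 CPM in Cont 6 HPA members (1.83, 1.60 to 2.07), while other nuclei had 178 and 76.7 CPM (1.21). The difference of the log2 ratios was 0.62 (0.37 to 0.87). *Kdm3a*, a demethylase of histone H3 lysine 9, had 40.3 CPM in Rom 6 HPA and 10.2 CPM in Cont 6 HPA (1.98; difference 0.76, 0.22 to 1.29). *Hoxb3* had 138 CPM in Rom 6 HPA and 51.8 CPM in Cont 6 HPA (1.42; difference 0.78, 0.53 to 1.03). In the larger sub-groups 1 to 3 (below) it had 61.7, 16.8 and 38.7 CPM in Rom 6 HPA, Cont 6 HPA and 0 HPA. Cont 6 HPA was thus the lowest library in them, and much of the level of *Hoxb3* lay in the smaller sub-groups. *Slc2a1*, a glucose transporter, had 166 CPM in Rom 6 HPA and 60.3 CPM in Cont 6 HPA (1.46; difference 0.34, 0.09 to 0.59). For *Mknk2* and *Kdm3a* the members of Rom 6 HPA were close to other nuclei of the same library, and the members of Cont 6 HPA lay below other nuclei of theirs. Sampling error between embryo pools is not in these intervals.

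*Tgm3* was lower in Rom 6 HPA and differed between members and other nuclei. It encodes a transglutaminase that cross-links the cornified envelope in mammals. *Tgm3* had 10.1 CPM in Rom 6 HPA members, 43.6 CPM in Cont 6 HPA members and 10.2 CPM in 0 HPA members (22, 209 and 25 UMIs), and in other nuclei it had 4.10, 8.15 and 5.71 CPM. The log2 ratio of Rom to Cont was −2.12 (−2.82 to −1.48) in members and −0.99 in other nuclei, a difference of −1.13 (−1.88 to −0.37). Cont 6 HPA was thus the high library, and members of the other libraries had levels within each other's intervals. Among the few members that met no other rule (40 in Rom 6 HPA and 27 in Cont 6 HPA), the ratio of *Tgm3* changed sign (below). *Krt17*, a keratin of wounded skin in mammals, had 9.61 CPM in Rom 6 HPA members, 42.6 CPM in Cont 6 HPA members and 16.3 CPM in 0 HPA members. Unlike *Tgm3*, it was lower in Rom 6 HPA to a like degree in members (−2.15) and in other nuclei (−2.32).

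Further symbols were lower in Rom 6 HPA members. *Nxpe3*, *Birc2*, *Gmnn* and *Atxn7l2* had like levels in Cont 6 HPA and 0 HPA members. *Nxpe3* had 5.95 CPM in Rom 6 HPA, against 22.5 CPM in Cont 6 HPA and 22.8 CPM in 0 HPA (Rom over Cont −1.92; other nuclei −0.92). *Birc2*, an inhibitor of apoptosis, had 10.1 CPM in Rom 6 HPA, against 29.4 CPM in Cont 6 HPA and 33.8 CPM in 0 HPA (−1.55; other nuclei −0.49). *Gmnn* (geminin), which blocks repeated licensing of DNA replication, had 57.6 CPM in Rom 6 HPA, against 127 CPM in Cont 6 HPA and 146 CPM in 0 HPA (−1.14; other nuclei −0.67). *Atxn7l2* had 4.57 CPM in Rom 6 HPA, against 22.7 CPM in Cont 6 HPA and 23.7 CPM in 0 HPA, with log2 ratios of Rom to Cont of −2.31 in members and −2.41 in other nuclei. The small nucleolar RNAs *Snord57* and *Snord474* were also lower in Rom 6 HPA than in Cont 6 HPA members (−1.53 and −1.88). So was the GTPase gene *Gimap9* (−1.28), but in sub-groups 1 to 3 (below) it was highest in Cont 6 HPA. Its levels there were 22.5, 65.3 and 40.5 CPM in Rom 6 HPA, Cont 6 HPA and 0 HPA. *Vcan*, the matrix proteoglycan versican, had a ratio of −1.38 that fell to −0.46 when members of sub-groups 1 to 3 (below) alone were used, so it rested on the smaller sub-groups.

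**Figure D3:**
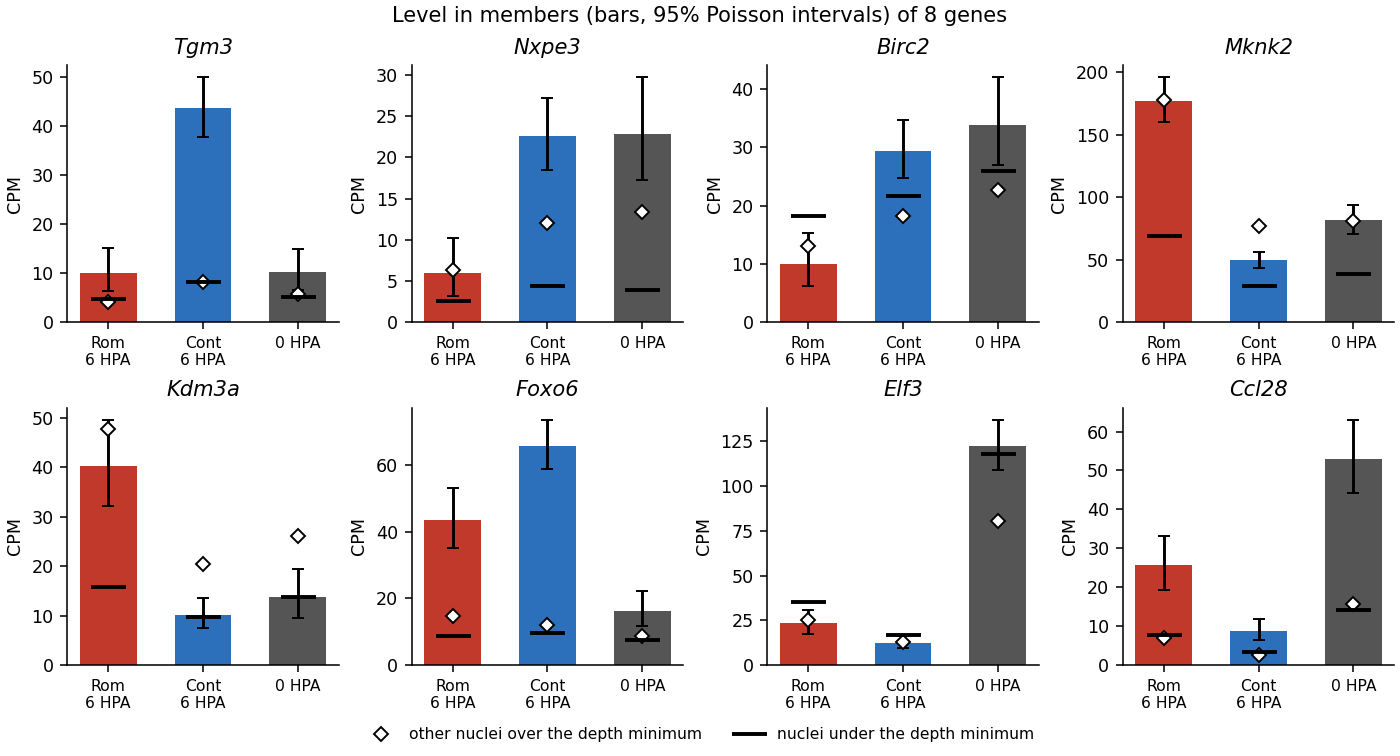
CPM of 8 genes in members (bars, exact Poisson 95% intervals) of Rom 6 HPA, Cont 6 HPA and 0 HPA, with other nuclei over the depth minimum (diamonds) and nuclei under it (dashes). *Tgm3* and *Foxo6* are highest in Cont 6 HPA members, *Nxpe3* and *Birc2* are lowest in Rom 6 HPA members, and *Elf3* and *Ccl28* are highest in 0 HPA.

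The difference between members and other nuclei in the ratio of Rom to Cont was read over 6450 symbols. In 4 symbols (0.062%) the log2 ratio was at least 1 higher in members than in other nuclei, and in 37 symbols (0.574%) at least 1 lower. Few of these carry a gene name. The 3 named ones above were *Vgf*, a secreted peptide precursor (0.70 in members and −0.69 in other nuclei, difference 1.39, 0.83 to 1.96), *Irf1*, an interferon-response factor (1.47 and 0.39, difference 1.08, 0.51 to 1.66), and *Birc7.1* (−0.08 and −1.13). The 7 named ones below included *Tgm3*, *Birc2* and *Nxpe3*, and also *Bag5* (difference −1.20), *Mink1* (−1.07), *4732456n10rik* (−1.05) and *Muc5b* (−1.08). The interval of *4732456n10rik* (−2.19 to 0.08) included 0, and it had 7 UMIs in Rom 6 HPA members. *Birc7.1* was among the leading genes of sub-group 5 (below), with 187 CPM in it and 25.6 CPM in the remaining members. *Muc5b* takes part in the rule, so its ratio in members and in other nuclei is bound to the choice of members. The symbols were chosen for the size of the difference, so their intervals are a description, and some entered through Cont 6 HPA, the library with most UMIs (*Nxpe3* had 13 UMIs in Rom 6 HPA members and 108 in Cont 6 HPA members).

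**Figure D4:**
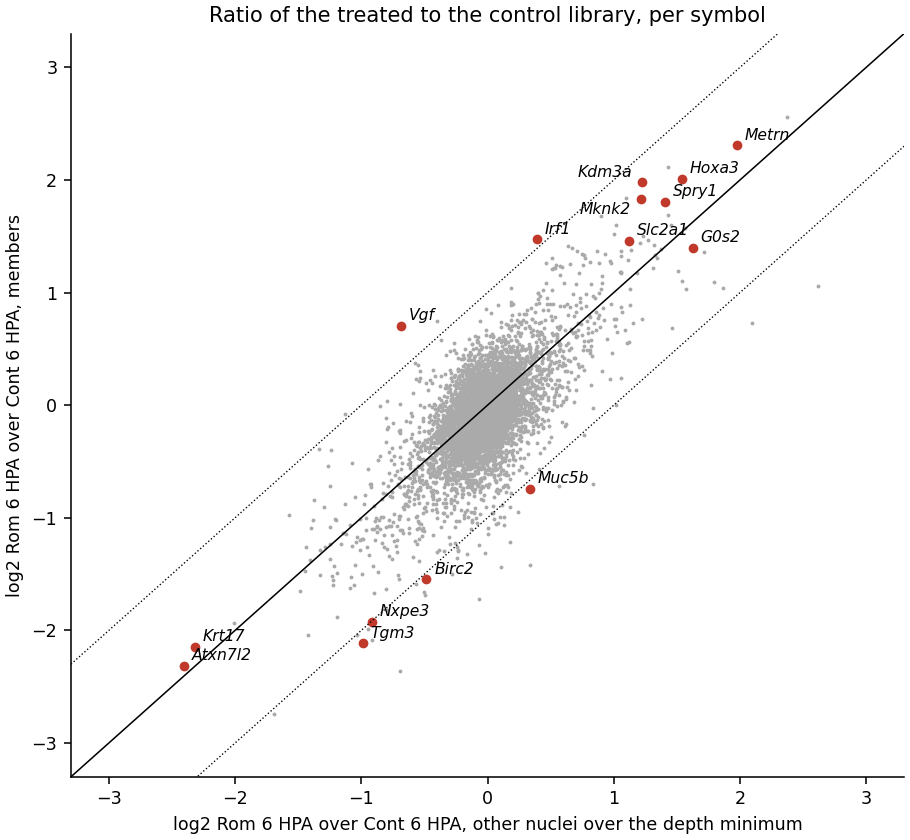
Log2 of the CPM in Rom 6 HPA over that in Cont 6 HPA, in other nuclei over the depth minimum (x axis) and in members (y axis), 1 point per symbol with at least 100 UMIs in the members of both libraries together; the solid line marks equal ratios and dotted lines a difference of 1. Most symbols lie close to the solid line, *Metrn* and *Krt17* among them, whereas *Vgf* and *Irf1* lie above the upper dotted line and *Tgm3*, *Birc2* and *Muc5b* below the lower one.

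Without the 4 rule symbols, 231 symbols were at least 2-fold higher in members than in both other kinds of nuclei and could be compared. Their median log2 ratio of Rom to Cont was −0.12 in members, with 90 higher and 141 lower, and 0.14 in other nuclei, with 159 higher and 72 lower. Over all 5997 symbols tested in both ways the medians were −0.06 in members and −0.03 in other nuclei. The 121 symbols that were over 2-fold lower in members than in other nuclei had −0.11 in members and −0.06 in other nuclei, so their median in members was close to that of the symbols that mark members. Among other nuclei, 214 of Rom 6 HPA and 177 of Cont 6 HPA lay just outside the rule (3 marker UMIs of 2 or more symbols), and their part in the difference was not tested. In shallow nuclei the median of the 231 symbols was 0.06. For Cont 6 HPA over 0 HPA, 238 such symbols had medians of −0.13 in members and −0.50 in other nuclei (26 higher and 212 lower). Over all symbols tested in that comparison the medians were −0.18 and −0.13. The symbols were picked by the ratio of members to other nuclei in the same libraries, so these medians are a description.

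Shares of 1.16% higher and 2.32% lower over all symbols are the background for the lists. In the mucin, O-glycosylation, tight junction, ion transport and cell cycle lists, 0 of 8, 10, 9, 11 and 12 tested genes differed by 2-fold between Rom 6 HPA and Cont 6 HPA in members, with list medians of 0.02, −0.05, 0.03, 0.05 and −0.01. The desmosome list had 1 of 7 tested genes over 2-fold lower in Rom 6 HPA (*Tgm3*), the keratin list 1 of 4 (*Krt17*, list median −0.27) and the ciliated list 1 of 4 (*Dnah9*, with 10.1 CPM in Rom 6 HPA and 24.6 CPM in Cont 6 HPA). The list of surface epithelial transcription factors had 1 of 5 over 2-fold higher, *Klf3*, with 53.1 CPM in Rom 6 HPA and 22.3 CPM in Cont 6 HPA (1.25, list median 0.35). Of 4 genes of class I histone deacetylases, the targets of the drug, 2 were tested and 0 passed 2-fold. A further list held genes that had passed a test for a romidepsin response at the same time and dose in the study's Nanostring panel, on RNA of other samples, and the panel itself was mostly made of genes known to respond to the drug. It was thus picked for its response and is no independent evidence of a direction. Of its genes, 6 of 14 tested were at least 2-fold higher in Rom 6 HPA, among them *Spry1*, *Slc2a1*, *G0s2*, *Smad7* and *Dll1*, and 2 were at least 2-fold lower (*Krt17* and *Cyp26a1*), with a median of 0.52. *Has2*, a hyaluronan synthase, had 1.83 CPM in Rom 6 HPA members, 15.4 CPM in Cont 6 HPA members and 3.26 CPM in 0 HPA members, but with too few UMIs to enter the test, and other nuclei had 6.90, 43.4 and 6.62 CPM.

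Cont 6 HPA was also compared with 0 HPA in members, as the ratio of their levels. Here too, time after amputation and other differences between the libraries cannot be told apart. This comparison shares the Cont 6 HPA library with the comparison above, so a symbol with a high value in that library alone appears in both. *Fosl1*, *Fosb*, *Mmp8*, *Mmp2* and a globin transcript were higher in Cont 6 HPA, and *Elf3*, *Ccl28*, *Bmp1* and *Top2a* were lower. Of 6852 symbols, 85 (1.24%) were at least 2-fold higher in Cont 6 HPA and 56 (0.817%) at least 2-fold lower. The median over symbols was −0.18 in members. Scaling by size factors moved every log2 ratio by 0.22 and gave 158 higher and 28 lower, and leaving out mitochondrial symbols moved it by 0.14.

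*Fosl1* and *Fosb*, subunits of the AP-1 factor that is induced by injury, had 122 and 101 UMIs in Cont 6 HPA members against 1 and 3 UMIs in 0 HPA members, which gave log2 ratios of 5.96 (3.46 to 11.28) and 4.11 (2.52 to 6.41). Other nuclei had ratios of 5.74 and 5.11. *Socs3*, a feedback inhibitor of cytokine signalling, had 45.3 CPM in Cont 6 HPA members and 6.93 CPM in 0 HPA members (2.71), a smaller ratio than in other nuclei (4.65; difference −1.94, −2.75 to −1.14). In sub-groups 1 to 3 (below) alone *Socs3* had 21.2 CPM in Cont 6 HPA and 5.28 CPM in 0 HPA (2.01), and these sub-groups held 72 of its 217 UMIs in Cont 6 HPA members. *Mmp8*, a collagenase, had 210 CPM in Cont 6 HPA and 48.1 CPM in 0 HPA (2.13), and *Mmp2* had 48.6 and 11 CPM (2.14). *Vmp1*, a membrane protein of autophagy, and *Trex2*, an exonuclease, were also higher (2.53 and 2.77), each with nearly the same ratio in other nuclei (2.49 and 2.73). The globin transcript *Hba-l5* had 817 CPM in Cont 6 HPA members and 199 CPM in 0 HPA members, but 2196 and 603 CPM in the shallow nuclei of these libraries. Globin was thus most abundant in the shallow nuclei, and the part of free RNA in its level in members was not tested.

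*Foxo6*, a forkhead factor, was higher in members of Cont 6 HPA by far more than in other nuclei. It had 65.9 CPM in Cont 6 HPA members and 16.3 CPM in 0 HPA members (2.02, 1.54 to 2.53), against 11.9 and 8.72 CPM in other nuclei (0.45), a difference of 1.57 (1.00 to 2.13). *Tgm3* had a log2 ratio of 2.10 in members and 0.52 in other nuclei (difference 1.58, 0.87 to 2.29). Genes were picked for naming by their ratio in members here too, so the intervals of these differences are a description. Rom 6 HPA members had 43.5 CPM of *Foxo6*, a level between those of Cont 6 HPA and 0 HPA. Of 8 wound epidermis genes tested, 2 (*Fosl1* and *Krt17*) were at least 2-fold higher in Cont 6 HPA, with a median of 0.61.

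*Elf3*, an epithelial ETS factor, was the lowest of the symbols with a gene name, ranked by the interval bound nearest to 0. It had 12.5 CPM in Cont 6 HPA members and 122 CPM in 0 HPA members (−3.29, −3.71 to −2.88), against 12.9 and 80.6 CPM in other nuclei and 16.7 and 118 CPM in shallow nuclei. The chemokine *Ccl28* had 8.76 CPM in Cont 6 HPA and 53.0 CPM in 0 HPA (−2.60), while Rom 6 HPA members had 25.6 CPM. Its log2 ratio of members to other nuclei was 1.82 in Cont 6 HPA and 1.75 in 0 HPA, so it was lower to a like degree in other nuclei. *Gig2p* had 298 CPM in Cont 6 HPA and 1190 CPM in 0 HPA (−2.00; other nuclei −1.43). *Bmp1*, the procollagen C-proteinase, had 26.1 CPM in Cont 6 HPA and 88.9 CPM in 0 HPA (−1.77; other nuclei −0.89). The NF-kappaB inhibitor *Nfkbia* had 24.6 CPM in Cont 6 HPA and 67.7 CPM in 0 HPA (−1.46), and the steroid enzyme *Hsd17b2* had 12.3 and 36.7 CPM (−1.58). *Bmp1* and *Hsd17b2* changed sign among members that met no other rule (27 in Cont 6 HPA and 118 in 0 HPA). *Top2a*, a topoisomerase of dividing cells, had 34.8 CPM in Cont 6 HPA and 85.2 CPM in 0 HPA (−1.29; other nuclei −0.48). It was the only one of 12 tested cell cycle genes past 2-fold. *Hoxb3* (−1.21), the potassium channel subunit *Kcne1* (−1.39) and *Cyp4b1* (−1.44) completed the 10 lowest named symbols by this bound, which covers counting error only.

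Members were not uniform. They were clustered within themselves (Leiden method, resolution 0.5, each symbol centred within its library) into 7 sub-groups, whose sizes between libraries are not a result because of that centring. Sub-groups 1, 2 and 3 held 685, 595 and 299 members. The list of mucin and mucus genes summed to 9256, 8806 and 8535 CPM in them, most of it *Fcgbp* (7674, 7101 and 6876 CPM), and its 9 mucins alone summed to 385, 358 and 343 CPM. Genes that led them (*Herc3* and *Tec* in 1, *Hvcn1* and *Spc24* in 2, *Scnn1g*, *Ccl28* and *Nfkbia* in 3) differed by modest folds. *Muc5b* was near equal in them (186, 191 and 209 CPM), and *Otof* had 678, 659 and 553 CPM. All sub-groups are named by number, and the leading genes of sub-groups 1 to 3 gave no cell type.

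The smaller sub-groups carried genes of other cells. Sub-group 4 (171 members, median 6495 UMIs) was led by *Mir-205*, *Itga3*, *Piezo2* and the basal gene *Arap2*, and its fibroblast list summed to 6940 CPM against 1850 to 2450.2 CPM in the other sub-groups. Sub-group 5 (155 members) was led by *Rims2*, *Hoxd11*, *Vcan* and *Hoxb3*. Sub-group 6 (57 members, median 7160 UMIs) was led by *Dmd*, *Mypn* and *Ryr1*, its muscle list summed to 8699 CPM, and 56 of its members also met the rule of another cell type. Sub-group 7 (47 members) was led by *Ak9* and by *Dnah9* and *Dnah5*, dyneins of motile cilia, and 31 of its members met another rule. It was mixed, since *Des.2*, *Vim.2*, *Krt18* and *Krt8* were also among its leading genes. Its keratin list summed to 4105 CPM, against 1052 to 1920 CPM in the other sub-groups. The notochord list summed to 128 CPM in it, against 9.25 to 21.0 CPM. The 9 mucins summed to 167 to 227 CPM in sub-groups 4 to 7, less than in sub-groups 1 to 3, and *Fcgbp* had 3537 to 4775 CPM. The hair cell list summed to 43.2 CPM in sub-group 5 and 93.5 CPM in sub-group 7, against 1.30 to 2.44 CPM in sub-groups 1 to 3. Each of these 4 sub-groups had a higher median depth than sub-groups 1 to 3, and the part of doublets and of free RNA in them was not tested.

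**Figure D5:**
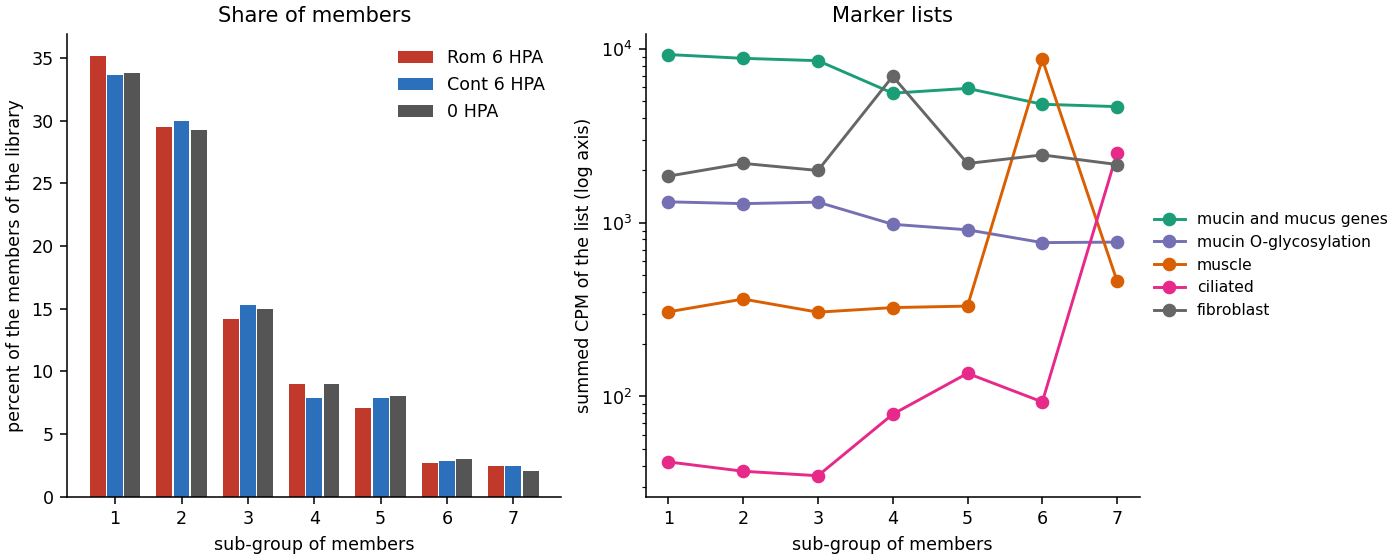
Left, percent of the members of each library in the 7 sub-groups; right, summed CPM (log axis) of 5 marker lists in each sub-group over the 3 libraries. The mucin and mucus list, mostly *Fcgbp*, stays between 4645 and 9256 CPM, the muscle list reaches 8699 CPM in sub-group 6 alone, the ciliated list 2518 CPM in sub-group 7 alone and the fibroblast list 6940 CPM in sub-group 4.

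With sub-groups 1 to 3 alone, which left 412 Rom 6 HPA members, 671 Cont 6 HPA members and 496 members at 0 HPA, the ratios of Rom to Cont kept their direction for the genes given here, and those of *Vcan*, *Krt17* and *Hoxb3* moved most. *Mknk2* had a log2 ratio of 1.83, *Kdm3a* of 2.10, *Metrn* of 2.37 and *Hoxb3* of 1.88. *Tgm3* had −2.35, *Nxpe3* −2.35, *Birc2* −1.70 and *Krt17* −1.53, with 8.35 CPM in Rom 6 HPA and 24.1 CPM in Cont 6 HPA. The ratio of Cont 6 HPA to 0 HPA was 2.90 for *Tgm3* and 1.93 for *Foxo6*.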

How the data were processed

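RNA of single nuclei was measured in 3 libraries (10x Genomics, v3 chemistry). The authors aligned the reads to a transcript assembly of the axolotl, and Cell Ranger gave the UMIs of each transcript in each nucleus (version 6.0.0 per the submitters' processing notes, 3.0.2 in the matrix headers), and the deposited counts are raw whole numbers for 91648 features. Reads were not processed again.

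Features with the same symbol, case ignored, were summed, and features without a gene name kept their own. UMIs were summed over the nuclei of a class and scaled to CPM. Sums have exact Poisson, ratios exact conditional Poisson and shares exact binomial (Clopper-Pearson) 95% intervals, and the code was tested on simulated data. Member totals of 2186094 (Rom 6 HPA), 4792052 (Cont 6 HPA) and 2452160 UMIs (0 HPA) set the precision. Symbols with at least 30 UMIs in the members of each library, or 100 over both libraries compared, were used, and a ratio was called at 2-fold. Members, gene lists and markers were chosen with earlier results of these data known. Named genes are the rule symbols, list genes, the 20 highest ratios of members to other nuclei and, for both library comparisons, the 10 highest and 10 lowest by the interval bound nearest to 0, without contig or repeat names. A few single-gene results are left out. No doublet caller was run, and 0 deposited sample columns were left unused. Members were clustered on 2000 symbols, 10 components and 15 neighbours. RefSeq names matched 2 of the 4 rule symbols, and no sequence was read. Alternatives changed the rule, the depth minimum, thinning, scaling, the UMI minimum and the members kept, and subtracted the profile of shallow nuclei. Tools were Python 3.11.15, numpy 2.4.6, scipy 1.17.1, pandas 2.3.3, scikit-learn 1.9.0, leidenalg 0.10.2 and matplotlib 3.10.9.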

Additional observations from a re-analysis of the deposited data

How the results depend on the processing

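No paired analysis was possible because each condition is 1 library. Depth limits what the members can show: a symbol at 10 CPM has few UMIs per library, and counting error, not the spread between embryos, is all that the intervals hold.

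Shares of all nuclei are given for Rom 6 HPA, Cont 6 HPA and 0 HPA in this order. They were 1.65%, 1.80% and 2.86% with at least 3 marker UMIs, 0.194%, 0.578% and 0.371% with at least 8, and 0.586%, 0.959% and 1.10% with 3 symbols. They were 1.03%, 1.30% and 1.62% without *Muc5b*, 0.362%, 0.759% and 0.739% without *Otof*, and 0.36%, 0.736% and 0.615% without *Msln*. After thinning to 1300 UMIs they were 0.118%, 0.158% and 0.368%. Without *Arhgef4* Rom 6 HPA had 1.04%, and with a depth minimum of 1300 UMIs Cont 6 HPA had 1.62%. Rom 6 HPA had the lowest share under each of these, whereas Cont 6 HPA exceeded 0 HPA with 8 marker UMIs, without *Otof* and without *Msln*.

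Counts of 2-fold symbols are given as higher and lower. Members against other nuclei gave 572 and 359 with a minimum of 10 UMIs, 580 and 313 less the profile of shallow nuclei, 262 lower with 15 UMIs, 211 higher without members that met any other rule and 292 lower in sub-groups 1 to 3. Rom 6 HPA against Cont 6 HPA gave 150 and 324 with a minimum of 50 UMIs, 920 and 1999 with 10, 134 and 416 with 8 marker UMIs, 180 and 313 after thinning, 273 lower less the profile, 113 higher in sub-groups 1 to 3 and 1055 and 1181 without members that met any other rule. Cont 6 HPA against 0 HPA gave 158 and 28 with size factors, 178 and 185 with 50 UMIs, 1256 and 1295 with 10, 191 and 202 with 8 marker UMIs, 156 and 284 after thinning, 205 lower less the profile, 108 lower in sub-groups 1 to 3, 35 lower without mitochondrial symbols and 565 and 1435 without members that met any other rule. Symbols at least 1 above and below other nuclei in the ratio of Rom to Cont were 28 and 120 with 50 UMIs, 71 and 138 less the profile, 43 and 71 in sub-groups 1 to 3 and 1121 and 1221 without members that met any other rule. That last setting left 40, 27 and 118 members, and in it *Tgm3* (0.72, Rom over Cont), *Bmp1* (0.21, Cont over 0 HPA) and *Hsd17b2* (0.56, Cont over 0 HPA) changed sign. When the fibroblast rule, which most nuclei met, was not counted, 489, 794 and 597 members were left, and the direction of no named gene changed. That setting, the sub-groups and the scaling without mitochondrial symbols were chosen after seeing the data. Some log2 ratios of named genes between libraries left their main interval. Thinning moved 16 (27 stayed within) and 8 marker UMIs moved 6 (36 stayed). Without members that met any other rule 22 moved, 3 changed sign and 10 stayed. Except where a value itself names fewer members or a lower minimum, the cause was not tested.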

Other observations

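Genes that every cell uses also differed between libraries in members, and these sets were chosen after their values were seen. Of 63 cytoplasmic ribosomal protein symbols, 63 had lower CPM in Cont 6 HPA members than in 0 HPA members, and 60 of the intervals lay below 0. Over all tested symbols only 27.0% were higher in Cont 6 HPA members, with a median log2 ratio of −0.18. The median log2 ratio of the ribosomal set was −0.38 in members, −0.14 in other nuclei and −0.11 in shallow nuclei. Leaving out mitochondrial symbols moved log2 ratios in members by 0.14, and size factors moved them by 0.22. The part of scaling in the ratios of this set was not tested further. Between Rom 6 HPA and Cont 6 HPA the same set was divided, with 34 higher and 29 lower and a median of 0.01 in members.

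All 5 tested symbols of the mitochondrial genome were higher in Cont 6 HPA members than in 0 HPA members (median log2 ratio 0.90, against 0.49 in other nuclei and 0.24 in shallow nuclei). They were also higher in Rom 6 HPA members than in Cont 6 HPA members (median 0.35, against 0.25 in other nuclei and −0.15 in shallow nuclei). Over all tested symbols, 27.0% were higher in Cont 6 HPA members than in 0 HPA members. The share higher in Rom 6 HPA members than in Cont 6 HPA members was 39.1%.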
